A study of Mus musculus with 2 samples.

Results

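Transcription factors that act in endothelium and endocardium were followed in whole embryonic mouse hearts: Sox7, Sox17, Sox18, Erg, Fli1, Ets1, Tal1, Nfatc1, Klf2 and Klf4. The 10 genes were chosen by name, and all were matched among the 43346 gene rows. Total RNA of hearts at embryonic day 14.5 (E14.5), from the B6NCrl strain (a C57BL/6 substrain), was sequenced in 2 libraries of a single group. Each library came from a single heart, and the hearts were collected on different days, so embryo and collection day cannot be told apart. Each heart is labelled as single, yet its sex is labelled as pooled. There was no treatment, mutant or other tissue, so the values describe levels in the E14.5 heart and their spread between 2 embryos, with no p-value.

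The endothelium lines the vessels and the endocardium lines the heart chambers, and both are minor cell populations beside the muscle. SOX factors of the F group (Sox7, Sox17, Sox18) bind DNA through an HMG box and act in arterial, lymphatic and endocardial development. ETS factors bind GGAA cores, and Erg and Fli1 maintain endothelial gene expression. Tal1 is a basic helix-loop-helix factor of blood and endothelial progenitors. Nfatc1 marks endocardial cells of the forming valves and is sent to the nucleus by the phosphatase calcineurin, while Klf2 and Klf4 are zinc-finger factors induced by blood flow.

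Depth was similar in both libraries, with a total expected count (an estimated read count per gene) of 2.85e+07 and 2.90e+07. Levels are in TPM (transcript abundance scaled for length and depth), where 1 read on 1 kb was worth 0.0478 and 0.0475 TPM. The tissue label fitted its markers: all 9 cardiomyocyte genes were above a TPM of 1 in both libraries, led by Actc1 at 12210 and 11610 TPM. All 20 pan-endothelial genes other than transcription factors also passed 1 TPM, with a median mean level of 54.7 TPM, and so did all 5 endocardial genes, with a median of 12.2 TPM. The endocardial list includes Nfatc1 (mean 17.1 TPM), which is itself among the chosen factors. Its other members, Npr3, Adgrg6, Tmem100 and Nrg1, had mean levels of 8.34, 12.2, 12.2 and 2.44 TPM. Ramp2, a receptor partner of adrenomedullin signalling, led the endothelial list at 215 and 223 TPM.

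All 10 factors were detected, meaning that each library reached 1 TPM, as were 31.5% of all gene rows. Their mean levels spanned 21.6-fold, from Sox18 at 36.4 ± 2.89 TPM to Tal1 at 1.69 ± 0.672 TPM (SD, n = 2). Their median was 16.9 TPM, against 14.2 TPM for all detected genes, and 6 of the 10 reached a mean of 10 TPM. Sox18 lay above 74.2% of detected genes and Tal1 above 5.66%. The order was Sox18, Ets1, Sox7, Klf2, Nfatc1, Fli1, Sox17, Erg, Klf4 and Tal1. Sox18 and Ets1 overlapped between libraries, as did Klf2 with Nfatc1 and Nfatc1 with Fli1, so these neighbours did not differ beyond their spread. Every other pair of neighbours was separated in both libraries. The ratio of their mean TPM ran from 1.35-fold (Sox7 over Klf2) to 1.96-fold (Fli1 over Sox17). In single libraries the log2 ratio ran from 0.28 (Sox7 over Klf2, replicate 2) to 1.36 (Klf4 over Tal1, replicate 1).

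**Figure D1:**
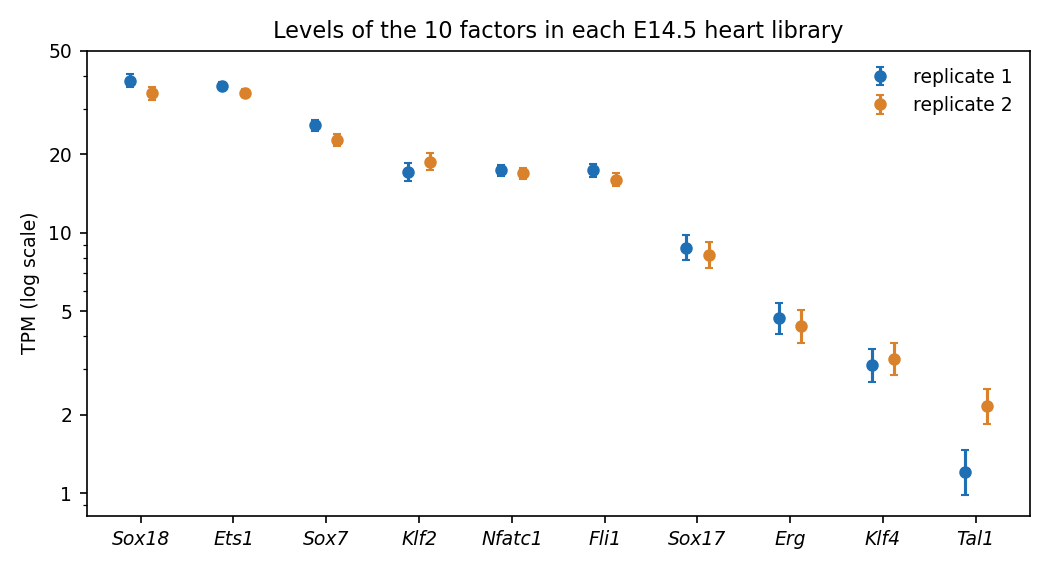
TPM (log scale) of the 10 factors in the 2 E14.5 heart libraries, replicate 1 in blue and replicate 2 in orange, with exact 95% Poisson intervals that cover counting error only. The levels fall from Sox18 and Ets1 (34.4 to 38.4 TPM) to Tal1, the factor whose libraries lie farthest apart (1.21 and 2.16 TPM).

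Among the SOX group F genes, Sox18 was the most abundant, Sox7 was next and Sox17 was lowest, in the same order in both hearts. The genes encode closely related HMG boxes, and a stretch of 60 bases from the end of the box shows how near the coding sequences are. The stretches come from GENCODE M21 transcripts, start at base 283 (Sox7), 352 (Sox17) and 385 (Sox18) of the coding sequence, and capitals mark the positions that are not the same in all 3 genes.
Sox7: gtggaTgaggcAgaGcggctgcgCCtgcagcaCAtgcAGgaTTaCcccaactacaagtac
Sox17: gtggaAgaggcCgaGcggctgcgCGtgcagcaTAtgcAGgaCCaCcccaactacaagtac
Sox18: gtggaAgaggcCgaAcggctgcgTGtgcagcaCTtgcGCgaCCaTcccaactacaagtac
Of these 60 positions, 48 (80%) were identical in the 3 genes. The longest exact run shared by any pair of the 3 coding sequences was 29 bases (Sox17 and Sox18), shorter than the fragment length of 100 bases that the deposited effective lengths imply.

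Sox18 (chr2:181669836-181671640, minus strand, mm10), whose loss of function is known to impair lymphatic development, was at 38.4 TPM in replicate 1 and 34.4 TPM in replicate 2. Sox7 (chr14:63943673-63950732, plus strand), a factor of vessel and endocardial development, was at 25.9 and 22.7 TPM. Sox17 (chr1:4490931-4497354, minus strand), a factor of arterial endothelium and of endoderm, was at 8.78 and 8.24 TPM. Sox18 was above Sox7 and Sox7 above Sox17 in each library, and the libraries of the 3 genes did not overlap. The Sox18 level was 4.27-fold that of Sox17 (log2 ratio 2.09 ± 0.05, SD, n = 2) and 1.5-fold that of Sox7 (log2 ratio 0.58 ± 0.02). Sox18 held 52.6% of the summed TPM of the 3 genes in both libraries. The share of Sox7 was 35.1% ± 0.425 and that of Sox17 was 12.3% ± 0.425 (SD, n = 2).

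Across the 19 SOX genes measured, Sox18 ranked 2nd, Sox7 3rd and Sox17 7th by mean TPM. The highest was Sox4, a factor of progenitor and outflow tract cells, at 52.4 and 59.9 TPM. Sox9, a factor of cushion mesenchyme and cartilage, was at 13.9 and 16.1 TPM, and Sox11 at 13.8 and 15.0 TPM. Sox1, Sox14 and Sox15 had a count of 0 in both libraries. Sox18 and Sox7 were thus the most abundant SOX genes after Sox4.

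The ETS members were ordered Ets1, Fli1, Erg. All 3 share the ETS domain, a winged helix-turn-helix that reads GGAA. The stretch below lies in its DNA-recognition part, from base 1066 of the coding sequence in Erg, 976 in Fli1 and 1138 in Ets1, with capitals as before.
Erg: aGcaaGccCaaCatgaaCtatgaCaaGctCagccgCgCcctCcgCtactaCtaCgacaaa
Fli1: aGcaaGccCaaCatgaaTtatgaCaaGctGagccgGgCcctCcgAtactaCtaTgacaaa
Ets1: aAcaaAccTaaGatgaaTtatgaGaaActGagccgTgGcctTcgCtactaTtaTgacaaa
In this stretch 46 of 60 positions (76.7%) were identical in the 3 genes. The longest exact run shared by a pair was 22 bases (Erg and Fli1).

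Ets1 (chr9:32636221-32757820, plus strand), which acts in endothelium, lymphocytes and neural crest, was at 36.7 and 34.4 TPM. Fli1 (chr9:32422204-32542861, minus strand) was at 17.4 and 16.0 TPM. The 2 genes lie head to head on chromosome 9, with a gap of 93.4 kb that holds 2 other annotated genes. Erg (chr16:95359169-95586593, minus strand) was at 4.70 and 4.38 TPM. None of the 3 overlapped another in its libraries. Ets1 was 2.13-fold above Fli1 (log2 ratio 1.09 ± 0.02) and 7.83-fold above Erg (2.97 ± 0.01, SD, n = 2), and Fli1 was 3.68-fold above Erg (1.88 ± 0.01). Their shares of the summed TPM of the 3 genes were 62.6% ± 0.247 for Ets1, 29.4% ± 0.251 for Fli1 and 8.0% ± 0.00378 for Erg.

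Of 26 ETS genes, Ets1 ranked 3rd, Fli1 8th and Erg 16th. Elf2 was highest at 47.4 and 45.8 TPM and Ets2 followed at 38.4 and 35.8 TPM. Gabpa was at 29.8 and 28.7 TPM and Etv1 at 26.7 and 26.6 TPM. Etv2, the ETS factor that starts the endothelial programme in early embryos, had 0 and 3 counts, and it was named after its values were seen. A count of 0 allows up to 3 reads. Fli1 overlaps 6 other annotated genes, of which Gm37474 on the same strand held 71 and 69 counts and the antisense Gm27201 held 2 and 2. Because strand use in counting is not given in the sources used here, reads of partners on the opposite strand cannot be told apart from reads of Fli1, Ets1, Sox17 or Nfatc1. The antisense gene that overlaps Nfatc1 in GENCODE M21 was not analysed here.

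Erg has 3 RefSeq promoter windows. The one furthest downstream is shown because Erg-203 starts at its start site and Erg-202 and Erg-205 start 103 bases downstream of it, beyond the printed bases. The stretch runs from 250 before to 20 after that site (RefSeq GRCm38.p6, chr16:95459329-95459598, minus strand). Capitals mark the ETS core GGAA. They also mark a SOX motif, ACAAT. The last motif in capitals is the GATA motif GATAA, and all were searched on both strands.
Erg: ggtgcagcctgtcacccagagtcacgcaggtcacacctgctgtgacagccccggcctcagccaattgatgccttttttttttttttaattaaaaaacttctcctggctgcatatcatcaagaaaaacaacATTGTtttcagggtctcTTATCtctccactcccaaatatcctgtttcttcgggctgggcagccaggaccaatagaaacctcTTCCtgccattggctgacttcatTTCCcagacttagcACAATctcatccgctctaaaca
This window held 2 ETS matches, 2 SOX matches and 1 GATA match, and none of them overlapped another. The other 2 RefSeq windows of Erg held 1 and 4 ETS matches, with 0 SOX and 0 GATA matches. Of all 32851 RefSeq windows of 300 bases, 96% held the ETS core, 31% the SOX motif and 25.4% the GATA motif, so single matches are common. A match describes letters and shows no binding.

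Erg-203, which has this start, held 11.1% of Erg TPM in replicate 1 and 12.1% in replicate 2. With Erg-202 (34.7% and 36.3%) and Erg-205 (9.15% and 8.45%), which start 103 bases downstream, it held 54.9% and 56.9% (55.9% ± 1.38, SD, n = 2). A transcript of 3062 bases whose identifier is not in GENCODE M21 (ENSMUST00000118113) held 41.5% and 39.5%, and its start was not analysed here. By expected counts this transcript held 59.3% of Erg on average, since it is long. The remaining placed starts held 3.62% and 3.65%. Erg rested on 200 and 185 reads, and the deposited posterior SD of its leading transcript was 16.6 and 13.9 reads, so the split between its transcripts is coarse.

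Sox17 and Nfatc1 were the other factors with more than 1 transcript at a mean share of 10% or more. For Sox17 the leading transcript by TPM differed between libraries: Sox17-204 in replicate 1 (27.6%, against 20.6% in replicate 2) and Sox17-208 in replicate 2 (34.3%, against 21.9% in replicate 1). Sox17-201 held 25.1% and 19.2%, and Sox17-202 held 20.8% and 19.1%. By expected counts Sox17-201 led in replicate 1 (44.6%) and Sox17-208 in replicate 2 (37.5%). Sox17-201 and Sox17-202 carry the same full coding sequence of 1257 bases, HMG box included. Together they held 45.9% and 38.2% of TPM, and 62.0% and 49.5% of expected counts. The annotated coding sequence of Sox17-208 lacks the first 384 bases of the full one and begins at base 385, within the HMG box stretch printed above. With 312 and 298 reads on the whole gene and posterior SDs of up to 20 reads on a transcript, these shares are estimates of low precision.

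**Figure D2:**
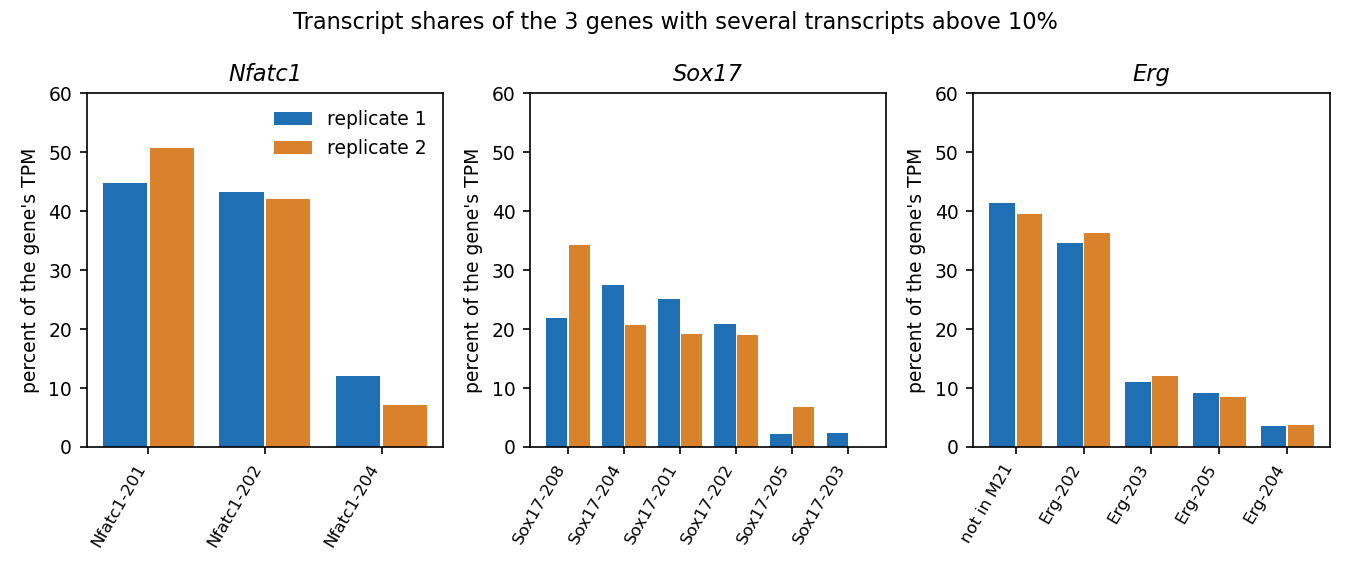
Percent of the gene's TPM on each transcript with a mean share above 1% for Nfatc1, Sox17 and Erg, replicate 1 in blue and replicate 2 in orange, without error bars because each bar is 1 library. Nfatc1 is split between Nfatc1-201 and Nfatc1-202, the leader of Sox17 differs between libraries, and the Erg transcript marked as not in M21 is ENSMUST00000118113.

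Nfatc1 (chr18:80606205-80713071, minus strand) was at 17.4 TPM in replicate 1 and 16.9 TPM in replicate 2, a mean of 17.1 ± 0.339 (SD, n = 2). It was the most abundant of the 5 NFAT genes and held 36.5% ± 2.13 of their summed TPM. Nfat5, the member that responds to osmotic stress, was at 11.6 and 12.1 TPM, and Nfatc2 was at 10.1 and 10.2 TPM. Nfatc4 was at 4.23 and 5.93 TPM and Nfatc3 at 2.39 and 3.17 TPM. Nfatc1 lay above each of them in both libraries. It was 2.06-fold above Npr3, an endocardial receptor gene (log2 ratio 1.04 ± 0.13), which was at 7.93 and 8.75 TPM.

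Nfatc1 has 3 annotated starts, of which the 2 upstream ones lie 292 bases apart and are counted as a group here. The downstream one lies 4885 bases from the furthest. Transcripts from the upstream starts held 55.2% and 49.2% of its TPM (52.2% ± 4.27) and those from the downstream start held 44.8% and 50.8%. Nfatc1-201 accounted for all of the downstream share and has the nearer of 2 annotated 3′ ends, which lie 41.2 kb apart, so the split by start is also the split by end and the 2 cannot be told apart. Its annotated coding sequence is 2109 bases long, against 2481 bases in Nfatc1-202, which has an upstream start and the far end and held 43.2% and 42.0%. Nfatc1-204, also from an upstream start and with 2817 coding bases, held 12.0% and 7.16%, on 208.7 and 122.2 reads with posterior SDs of 59.8 and 43.5 reads. The upstream group led in replicate 1. In replicate 2 the 2 groups were near equal, at 795.1 upstream and 795.9 downstream reads, with a posterior SD of 17.0 reads on Nfatc1-201. No change of the leading group between the libraries can be read from these shares.

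Of 8 genes for calcineurin subunits and their regulators, 7 were detected, as were 31.5% of all gene rows. Rcan1, which inhibits calcineurin and is itself a known NFAT target, was at 81.2 and 80.2 TPM. The regulatory subunit gene Ppp3r1 was at 64.9 and 64.0 TPM, and the catalytic subunit genes Ppp3ca and Ppp3cb at 44.9 and 49.2 and at 35.9 and 34.2 TPM. Rcan2 was at 37.6 and 40.6 TPM. None of the 7 with a mean count of at least 10 was 1.5-fold apart between libraries. All 7 had a mean count above 100, where 1.95% of all genes were, so this does not set them apart.

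Klf2 was well above Klf4 in both hearts. Their last zinc fingers are near copies of each other, as this stretch of 60 bases shows (from base 988 of the Klf2 and base 1375 of the Klf4 coding sequence, capitals where the genes differ).
Klf2: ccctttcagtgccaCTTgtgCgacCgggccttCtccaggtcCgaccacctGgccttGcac
Klf4: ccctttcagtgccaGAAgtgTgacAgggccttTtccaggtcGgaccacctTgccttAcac
The genes shared 51 of these 60 positions (85%), and their longest exact shared run was 14 bases.

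Klf2 (chr8:72319033-72321656, plus strand) was at 17.2 and 18.7 TPM, and Klf4 (chr4:55527143-55532466, minus strand) was at 3.10 and 3.29 TPM. The ratio was 5.62-fold (log2 2.49 ± 0.03, SD, n = 2), and Klf2 held 84.9% ± 0.254 of the summed TPM of the pair. Of 17 KLF genes, Klf2 ranked 6th and Klf4 10th. The 5 above Klf2 were Klf6 (28.0 and 26.0 TPM), Klf10 (26.2 and 23.2 TPM), Klf3, Klf13 and Klf11. Klf1, the red cell member of the family, was at 1.96 and 1.36 TPM.

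Blood flow is known to reach Klf2 and Klf4 through the kinases MEKK3, MEK5 and ERK5 and the factors of the MEF2 family, and the Klf2 promoter is known for a MEF2 site. The RefSeq bases from 250 to 30 before the RefSeq start of Klf2 at base 72319062 (GRCm38.p6, chr8:72318812-72319032, plus strand) are shown for that reason. The GENCODE M21 start, at base 72319033, lies upstream of the RefSeq start and directly follows the printed bases. Capitals mark the MEF2 consensus.
Klf2: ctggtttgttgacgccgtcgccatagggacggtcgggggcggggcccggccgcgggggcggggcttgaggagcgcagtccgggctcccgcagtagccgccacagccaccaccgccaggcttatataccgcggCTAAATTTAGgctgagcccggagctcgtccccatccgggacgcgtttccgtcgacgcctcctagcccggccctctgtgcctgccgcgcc
The match began 118 bases before the RefSeq start. The MEF2 consensus, which is its own reverse complement, occurred in 183 of 32851 RefSeq windows, or 0.557%. The Klf4 window held 0 such matches.

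All 12 genes of this flow cascade were detected, as were 31.5% of all gene rows. Mef2a led at 104 and 98.8 TPM, Ccm2 and Pdcd10, whose products restrain the cascade, were at 44.4 and 41.5 and at 44.4 and 50.2 TPM, and Mef2d and Mef2c were at 40.8 and 40.3 and at 35.7 and 33.1 TPM. The kinase genes Map3k3 and Map2k5 were at 20.8 and 22.3 and at 24.3 and 24.2 TPM. None of the 12, all with a mean count above 100, was 1.5-fold apart between libraries. Of all genes with such counts 1.95% were, so this does not set the 12 apart. Of 6 genes known as KLF2 or KLF4 targets in endothelium, 5 were detected: S1pr1 was highest at 62.5 and 58.5 TPM, followed by Nos3 (22.0 and 21.6), Thbd (10.6 and 15.6), Edn1 (5.43 and 7.05) and Adamts5 (3.05 and 3.95). Wnt9b was below 1 TPM, at 0.51 and 0.34. It was the only one of the 6 past 1.5-fold (47 and 32 counts, lower in replicate 2), as were 4.22% of all genes in that direction. Its interval for counting error included 0. Several of these genes are also expressed in heart muscle, so their levels cannot be assigned to the endothelium.

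Tal1 (chr4:115056426-115071755, plus strand) was the least abundant of the 10, at 1.21 TPM in replicate 1 and 2.16 TPM in replicate 2. It rested on 103 and 170 reads, and the exact 95% Poisson intervals were 0.988 to 1.47 TPM and 1.85 to 2.51 TPM. These intervals cover counting error only, and they did not overlap. Tal1-201, which begins at the first RefSeq start, held 90.9% and 89.4% of its TPM. The 250 bases before that start (RefSeq GRCm38.p6, chr4:115056176-115056425, plus strand) are shown with the ETS core and the GATA motif in capitals on either strand.
Tal1: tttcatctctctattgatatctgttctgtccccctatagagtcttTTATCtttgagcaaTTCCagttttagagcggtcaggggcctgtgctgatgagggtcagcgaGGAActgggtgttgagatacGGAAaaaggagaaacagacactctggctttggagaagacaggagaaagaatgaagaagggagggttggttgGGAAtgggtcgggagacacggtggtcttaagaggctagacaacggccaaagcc
The window held 4 ETS matches and 1 GATA match, which began 205 bases before the start, and 0 SOX and 0 MEF2 matches.

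TAL1 works in a complex with LMO2, LDB1, a GATA factor and an E protein. Of 11 genes for such partners and relatives, 8 were detected, as were 31.5% of all gene rows. The E protein genes Tcf4, Tcf3 and Tcf12 were at 61.9 and 57.4, 38.3 and 42.5, and 27.5 and 27.8 TPM. Ldb1 was at 46.7 and 52.5 TPM and Lmo2 at 18.4 and 17.0 TPM. Tal1 was far below Lyl1, its close relative, which was at 9.44 and 10.7 TPM (log2 ratio of Tal1 to Lyl1 -2.63 ± 0.47). The GATA partners differed widely: Gata2 was at 6.39 and 7.65 TPM, whereas Gata1, the red cell and megakaryocyte member, was at 0.42 and 0.18 TPM on 16 and 7 reads. Tal1 was 2.88-fold above Gata1 in replicate 1 and 12.0-fold in replicate 2, a mean log2 ratio of 2.56 ± 1.46 that was 1.74 with posterior mean TPM and 1.03 with a pseudocount of 1.

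The libraries were then compared gene by gene, as log2 of replicate 2 over replicate 1 on scaled counts, with an exact 95% interval for counting error and a fold of 1.5 as the mark. All 10 factors passed the filter of a mean count of 10, the lowest mean being 136.5 counts. Tal1 was the only one past 1.5-fold. Among all 16407 genes that passed, 10.4% were past it (6.17% higher in replicate 2). All 10 factors also had a mean count above 100, where 1.95% of 11959 genes were past it. A single factor cannot place the group above or below these shares. The median absolute difference of the 10 was 0.13, against 0.13 over all genes with a mean count of 10 and 0.10 over those with 100.

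Tal1 differed by 0.67 (interval 0.31 to 1.03), or 1.59-fold (1.24 to 2.05), and was higher in replicate 2. Sox7, Sox18 and Ets1, the factors of highest level, were lower in replicate 2, by -0.23 (-0.33 to -0.13), -0.21 (-0.33 to -0.09) and -0.15 (-0.21 to -0.08). For the other 6 the interval included 0, from Erg at -0.17 to Klf2 at 0.08. With TMM scaling, an interval away from 0 was found for 4 of the 10 factors and for 37.3% of the 11959 genes above that count. In all, 7 of 10 were lower in replicate 2 (49.7% of all genes), but with spike-in scaling this fell to 5 of 10, since Fli1 (0.01) and Nfatc1 (0.02) changed sign. Spike-in scaling moved the median of all genes up by 0.11. This exceeds the distance from 0 of the Sox18 and Ets1 intervals (upper ends -0.09 and -0.08), so with that scaling both would include 0. In bulk tissue, fewer cells of a type and less RNA per cell cannot be told apart.

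**Figure D3:**
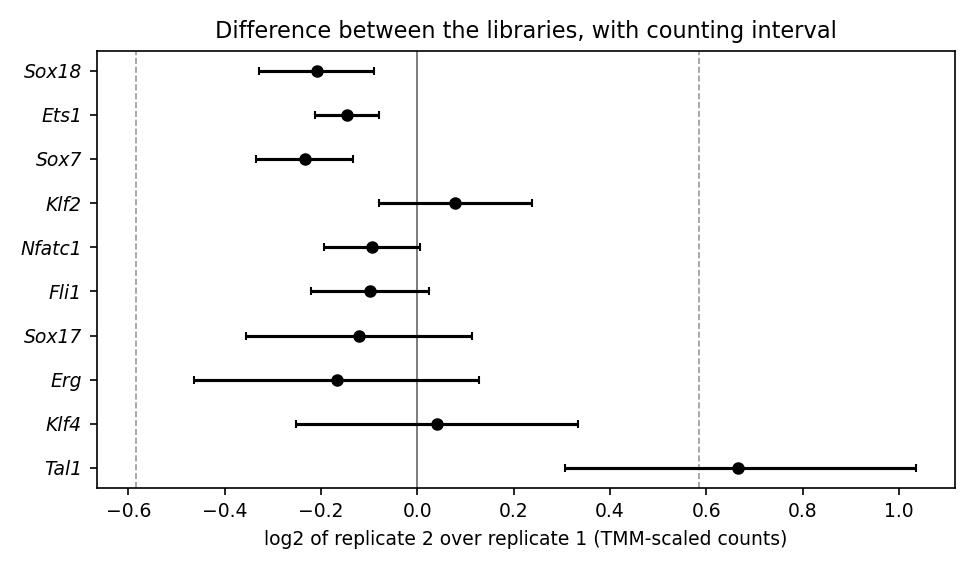
log2 of replicate 2 over replicate 1 on TMM-scaled counts for the 10 factors, ordered by level, with exact 95% intervals for counting error and dashed lines at 1.5-fold. Tal1 is the only factor past the line (0.67), and the intervals of Sox18, Ets1 and Sox7 lie below 0.

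Endothelial genes moved as little as most of the factors. Of the 20 pan-endothelial genes, 15 were lower and 5 higher in replicate 2 (49.7% of all genes were lower), with a median of -0.06. Of the 20, 0 were past 1.5-fold. Spike-in scaling moves each difference up by 0.11, so with that scaling the median would lie above 0. The direction of this split therefore depends on the scaling. Their summed TPM was 1248 in replicate 1 and 1259 in replicate 2. The junction genes Pecam1 (-0.23) and Cdh5 (-0.22) were lower by about as much as Sox7 and Sox18, while Tie1 (0.34) and Vwf (0.21) were higher. The 5 endocardial genes, Nfatc1 among them, had a median of 0.09 and summed to 51.7 and 52.9 TPM. The 6 lymphatic genes had a median of 0.11 and summed to 72.7 and 83.4 TPM. None of these lists had a member at 0 in either library.

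Of 22 other transcription regulators of endothelium, 20 were detected (31.5% of all gene rows), with a median mean level of 12.5 TPM. Ets2, Mef2c (35.7 and 33.1 TPM), Hey2 (26.9 and 28.5 TPM), Elk3 (25.2 and 27.8 TPM) and Mecom (18.9 and 17.8 TPM) were the highest. The median difference of these regulators was 0.03, with 10 lower and 11 higher of the 21 with a mean count of 10 (49.7% of all genes were lower). Foxf1 was the only one past 1.5-fold, on 2 and 30 counts, as were 6.17% of all genes in that direction. It was named after its values were seen.

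Red cell genes differed more between the hearts, and Tal1 is also a blood cell factor. Of 13 red cell genes, 12 were lower in replicate 2, with a median of -0.89, and 10 were past 1.5-fold in that direction, against 4.22% of all genes. Their summed TPM was 58910 in replicate 1 and 32900 in replicate 2. The haemoglobin genes Hba-a1, Hba-a2, Hbb-bs and Hbb-bt were 1.83-fold to 1.86-fold lower in replicate 2, Alas2 was 2.06-fold lower and Slc4a1 2.18-fold lower. Epor, the erythropoietin receptor gene, went the other way, with 54 and 118 counts and a 2.09-fold higher level in replicate 2 (1.51 to 2.96). Among the 12 lower genes, the intervals for counting error of Gata1, Klf1, Epb42 and Rhag included 0. Tal1 was higher in replicate 2, unlike these 12 and like Epor, and whether red cells have a part in this was not tested.

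The 10 megakaryocyte genes summed to 46.9 and 46.2 TPM, and 7 of 9 tested were lower in replicate 2, with a median of -0.10. Of the 9, 3 were past 1.5-fold in that direction, as were 4.22% of all genes. The interval for counting error of Gp1ba, among these 3, included 0. The 12 leukocyte genes summed to 257 and 239 TPM, with 10 lower, a median of -0.27 and 1 past 1.5-fold (Ptprc, from 155 to 107 counts). All 6 neural crest and neuron genes were higher in replicate 2 (49.7% of all genes were lower), with a median of 1.47. The intervals for counting error of Ednrb (0.03) and Sox10 (0.30, on 21 and 27 counts) included 0. Of the 6, 4 were past 1.5-fold, against 6.17% of all genes in that direction. Among them were Tubb3 (from 44 to 178 counts), Stmn2 (from 1.52 to 4.91 TPM) and Ngfr (from 68 to 163 counts). The part of blood, neural or other cells in the Tal1 difference was not tested.

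**Figure D4:**
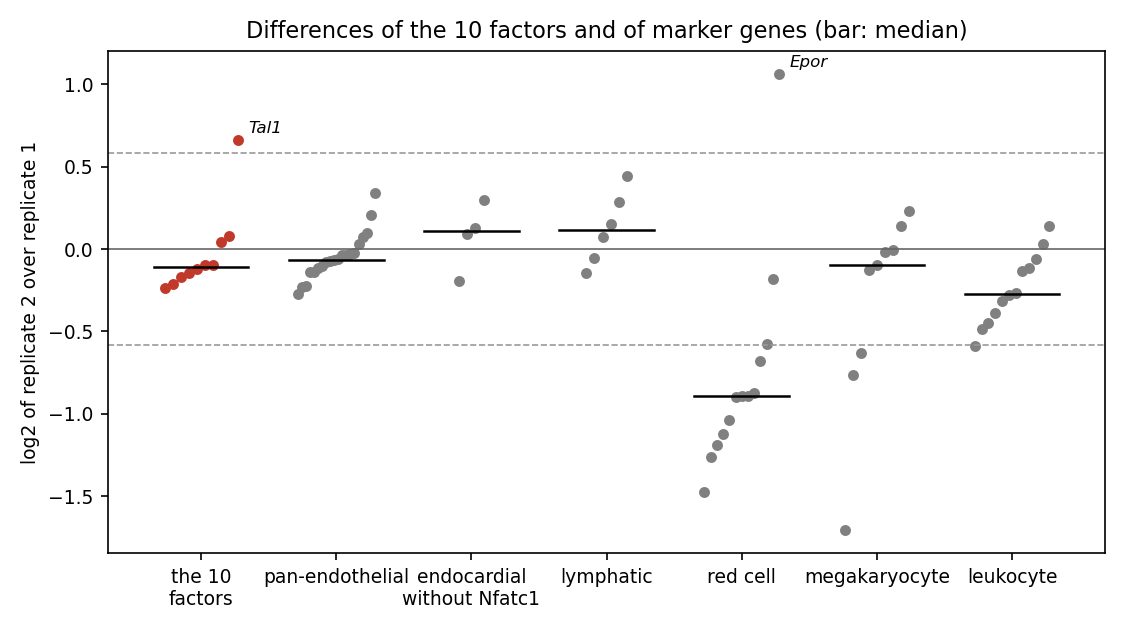
log2 of replicate 2 over replicate 1 for the 10 factors (red) and for 6 marker lists (grey; only genes whose mean count reached 10, Nfatc1 left out of the endocardial list), with a black bar at each median and dashed lines at 1.5-fold. Red cell genes lie mostly near -0.89, apart from Epor at 1.07, while the endothelial genes and most of the 10 factors lie near 0 and Tal1 at 0.67.

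In 3 further marker lists 1 gene each was past 1.5-fold, and higher in replicate 2, as were 6.17% of all genes. These 3 genes had a mean count above 100, where the share was 1.34%. Among 9 cushion mesenchyme genes it was Twist1 (96 and 155 counts), among 10 mural genes Myh11 (59 and 191 counts) and among 6 epicardial genes Upk3b (1253 and 1962 counts). None of the 9 cardiomyocyte genes was past it, nor any of the 13 immediate early genes with a mean count of 10. Of these 13, 9 were higher and 4 lower in replicate 2 (49.7% of all genes were lower), with a median of 0.10. Immediate early genes, like Klf2 and Klf4, can respond to tissue handling, and a part of handling was not tested. In the KLF family Klf8 (47 and 78 counts) and Klf14 (90 and 146 counts) were 1.59-fold and 1.56-fold higher in replicate 2, and no measured SOX, ETS or NFAT gene with a mean count of 10 was past 1.5-fold.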

How the data were processed

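Gene and transcript tables of 2 libraries were used. Libraries were made from 10 ng of total RNA above 200 nt with spike-ins, per the labels' protocols. The genome is mm10, per the labels, and the annotation GENCODE M4, per the notes deposited with the tables. Which aligner, quantifier and strand setting were used is not given in the sources used here. The deposited expected counts are estimates that share ambiguous reads and are not scaled by depth. The deposited TPM values were scaled by the authors over all rows, spike-ins (3.74% and 3.55% of counts) included. The deposited percent values give a transcript's share in its gene, and shares were computed again here from TPM.

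GENCODE M21 (GRCm38) gave names and positions, and named 42462 of 43346 gene rows. Promoters came from RefSeq GRCm38.p6, with windows for 4 of the 10 factors. Levels are mean TPM ± SD over 2 libraries. Expected counts were rounded and scaled by TMM (edgeR 4.0.16, R 4.3.3), with a prior of 0.5 and a mean count of at least 10. Clopper-Pearson and Poisson intervals cover counting error only, since reads are not independent molecules. The calculation was tested on simulated counts. With 1 library per embryo no p-value was computed, and the spread may be technical. Fold alternatives, count and TPM minimums, scalings (DESeq2 1.42.0 size factors among them), pseudocounts, posterior estimates and single libraries were tried.

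The factors and lists were chosen with earlier results of these data known. Named were all 10 factors, the 5 genes of highest TPM in each family or partner list, listed genes past 1.5-fold whose mean count reached 50, the 3 highest markers of a list and those at 0, and transcripts with a mean share of 10%; further genes serve as the reference of a ratio or comparison and were picked with values known. Some genes that this rule names are not reported here.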

Additional observations from a re-analysis of the deposited data

How the results depend on the processing

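All 10 factors stayed detected at a minimum of 0.5 TPM, and 7 of 10 passed 5 TPM. At a fold of 2 the number of factors apart between the libraries was 0 (4.07% of all genes, and 0.426% at a mean count of 100), against 1 at 1.5 (Tal1). Over all genes 1704 were past 1.5-fold, 7211 with no count filter and 233 at a mean count of 100. Spike-in scaling raised the difference of every factor by 0.11, which took Sox7 (-0.12), Ets1 (-0.03) and Nfatc1 (0.02) out of their counting intervals and Fli1 to 0.01. Tal1 ranged from 0.66 to 0.84 over its 6 alternatives. With a pseudocount of 1 the log2 ratios were 1.97 (Sox18 to Sox17), 0.56 (Sox18 to Sox7), -1.41 (Sox17 to Sox7), 1.68 (Fli1 to Erg), 2.72 (Ets1 to Erg), 1.05 (Ets1 to Fli1) 2.18 (Klf2 to Klf4), -2.06 (Tal1 to Lyl1) and 1.03 (Tal1 to Gata1), which a pseudocount draws towards 0. With posterior mean TPM they were 2.03 (Sox18 to Sox17), 1.85 (Fli1 to Erg), 2.93 (Ets1 to Erg), 2.33 (Klf2 to Klf4) and 1.74 (Tal1 to Gata1), and the cause was not tested. No ratio or difference recomputed here changed direction except Fli1 and Nfatc1 under spike-in scaling. Leaving out a library gives the other library's value. No paired analysis was possible because there is 1 group. Depth limits the transcript shares of Erg, Sox17 and Tal1, with 103 to 312 reads per gene.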
